A study of Arabidopsis thaliana with 12 samples.

Results

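Guard cell preparations and whole leaves of wild-type Arabidopsis thaliana (accession Col-0) were compared without abscisic acid (ABA), the hormone that closes stomata during drought. The comparison uses 4 of the 12 RNA-seq libraries of the series, chosen by their labels: 2 libraries of guard cell preparations and 2 of rosette leaves. Both materials came from rosettes of 5 to 6 week old plants kept at 22 °C under a 12 h photoperiod, which were sprayed with ethanol vehicle 4 h before sampling. Guard cell RNA was taken from fragments of isolated leaf epidermis and purified with an RNeasy mini kit, whereas leaf RNA was purified with a Spectrum plant kit, so cell type, isolation and kit cannot be told apart in any difference given here. How many plants were pooled in a library is not given in the sources used here. Each group has n = 2 libraries, which the series' text calls biological replicates. Wild-type material sprayed with 50 µM ABA (2 preparation and 2 leaf libraries) and control leaves of the abf1/2/3/4 mutant (2 libraries), which carries mutations in the ABA-responsive transcription factors ABF1 to ABF4, are set beside some results. All values are read counts per gene scaled to library size as cpm (counts per 1e6 counts, with library totals adjusted by TMM factors), and fold changes are preparation over leaf on the log2 scale unless stated.

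Guard cells are the paired epidermal cells that border each stomatal pore. They open it by taking up potassium and anions behind a plasma membrane proton pump that blue light activates, and they close it when ABA and CO2 signals open anion channels. Mesophyll cells, which fill the leaf blade, carry most of its photosynthesis, and sugars leave the blade through the phloem of the veins. A peeled or blended epidermis holds guard cells, pavement cells and trichomes, and can keep pieces of vein and mesophyll.

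The preparation libraries held 26320766 and 30253362 counts and the leaf libraries 37571130 and 42933997. Of 22341 genes tested with edgeR's quasi-likelihood test, 14031 (62.8%) were called at an adjusted p under 0.05, with 6741 (30.2%) higher and 7290 (32.6%) lower in the preparations. The median log2 fold change of all tested genes was -0.01, and in 83.8% of genes the 2 materials did not overlap. A fold change of at least 2 was met by 3338 genes (14.9%) higher and by 2156 (9.65%) lower. The balance depends on scaling. Under scaling by total counts alone, the median over all genes shifted by 0.38, with 11350 genes higher and 3821 lower, and under upper quartile factors by 0.13, with 8178 higher and 5979 lower. The counts of each list are therefore read against the 30.2% and 32.6% of all genes called higher and lower.

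The label was checked first against 16 genes that mark guard cells. All 16 were tested and all 16 were called higher in the preparations, with a median log2 fold change of 3.27 and no overlap between the materials in any of them. KAT1, an inward potassium channel, had 165 and 170.2 cpm in the preparations against 15.5 and 19.3 cpm in leaves. MYB60, a transcription factor needed for full stomatal opening, had 131 and 135 cpm in the preparations and 14.6 and 16.7 cpm in leaves, and FAMA, the transcription factor that completes guard cell fate, had 152 and 153 cpm in the preparations against 13.5 and 18.7 cpm in leaves. The preparations were 8.49 to 9.63 times the leaf level in these genes, with log2 fold changes of 3.27 (SE 0.18, adjusted p = 7.87e-08) for KAT1, 3.09 (SE 0.09, adjusted p = 2.60e-09) for MYB60 and 3.24 (SE 0.14, adjusted p = 1.90e-08) for FAMA.

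The size of the difference was similar among most markers, and over all 16 the log2 fold change ran from 0.62 to 3.63. The 11 markers at 3 or more, a group set by this value itself, lay between 3.09 and 3.63. Their levels in the preparations ran from 15.4 and 18.22 cpm for ALMT12, an anion channel, to 640.3 and 575 cpm for AT1G22690, which RefSeq annotates as a gibberellin-regulated family protein. SLAC1, the main anion channel of stomatal closure, had 78.8 and 75.6 cpm in the preparations and 6.83 and 8.93 cpm in leaves, but 43.0% of its exonic sequence overlaps another locus. SCAP1, a DOF transcription factor of guard cell maturation, had 48.7 and 48.1 cpm in the preparations against 3.56 and 5.39 cpm in leaves. BLUS1, a kinase that carries the blue light signal, had 87.7 and 88.3 cpm in the preparations and 6.25 and 9.03 cpm in leaves. GORK, the outward potassium channel, was just under this cut at 2.996 (SE 0.13, adjusted p = 1.42e-08).

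The other 4 markers differed less. OST1, the kinase that passes the ABA signal to SLAC1, had 44.1 and 41.1 cpm in the preparations against 11.1 and 11.9 cpm in leaves, a difference of 1.89 (SE 0.07, adjusted p = 9.05e-09) on the log2 scale. AT4G22790, a MATE efflux family protein, had 18.6 and 16.2 cpm in the preparations and 5.00 and 5.25 cpm in leaves. TGG1, a myrosinase that guard cells hold in large amounts and phloem-associated myrosin cells also make, had 5560.1 and 5021 cpm in the preparations against 2572 and 3324 cpm in leaves, a difference of 0.84 (SE 0.15, adjusted p = 5.72e-04) on the log2 scale. CYP86A2, a cytochrome P450 of cutin synthesis whose exons overlap another locus over 41.0% of their length, had 459 and 418 cpm in the preparations and 319.6 and 253 cpm in leaves. For TGG1 and CYP86A2 the level in leaves was itself high, and the preparations were 1.79 and 1.53 times that level.

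**Figure D1:**
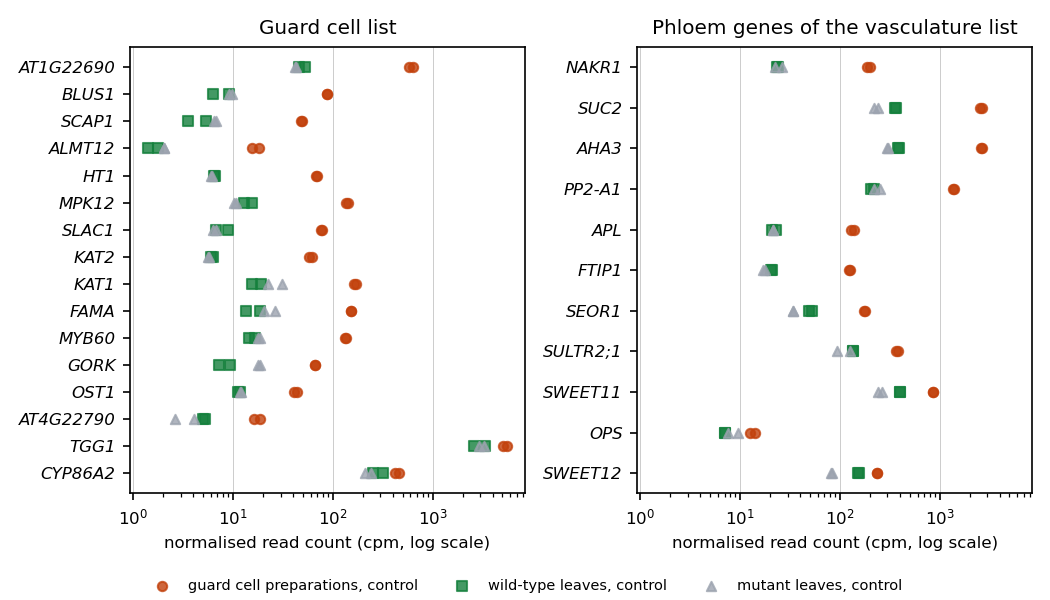
Normalised read counts (cpm, log axis) of the 16 guard cell list genes (left) and the 11 phloem genes of the vasculature list (right), 1 symbol per library (mutant control leaves as triangles), with genes ordered by log2 fold change. In both panels the 2 guard cell preparation libraries (circles) lie to the right of the wild-type leaf libraries (squares) in every gene, and SUC2 reaches 2659 and 2524 cpm.

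Markers of another cell type moved with the guard cell genes. Of 19 tested vasculature markers, 18 were called higher in the preparations and 1 lower, with a median of 1.11. The 11 phloem genes among them were all called higher, with a median of 2.59. SUC2, the sucrose transporter that loads the phloem, had 2659 and 2524 cpm in the preparations against 366 and 354 cpm in leaves. AHA3, the companion cell proton pump, had 2638 and 2621 cpm in the preparations and 379 and 389 cpm in leaves. PP2-A1, a phloem lectin, had 1359.9 and 1379.8 cpm in the preparations against 217 and 203 cpm in leaves. In each of these 3 genes the preparations were 6.52 to 7.20 times the leaf level, and NAKR1, a phloem metal-binding protein, reached 8.11 times.

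Within the veins the difference was uneven. The 5 xylem and secondary wall genes had a median of 0.38, with 4 called higher, and the xylem protease XCP1 was lower at -0.51 (SE 0.15, adjusted p = 0.0104). The lower call of XCP1 depends on scaling, since under total-count scaling 18 vasculature markers were called higher and 0 lower. SWEET11 and SWEET12, which release sucrose from phloem parenchyma, were higher by only 1.11 and 0.62. The summed level of all 20 vasculature markers was 8936 and 8818 cpm in the preparations against 1892 and 1863 in leaves, while that of the 16 guard cell markers was 7740.0 and 7089 against 3048 and 3764. TGG1, whose levels are given above, made up most of the guard cell sum in both materials. That sum therefore says little about the other guard cell markers, and the list's median log2 fold change was 3.27. SULTR1;3 was at 0 counts in all 4 libraries, the only vasculature marker that was. Phloem genes thus differed in the same direction as the guard cell genes, and their part in the results on the other classes was not tested.

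Mesophyll markers were lower without being absent. All 10 were called lower, with a median of -1.71, and their summed level was 25079.9 and 25624 cpm against 59142 and 62887 in leaves. All 10 are photosynthesis genes that are also in the light reaction or carbon fixation lists below, so the results of these lists are not separate. In such bulk samples fewer cells of a type and less RNA per cell cannot be told apart. Of 12 general epidermis markers, 5 were called higher and 3 lower, and under total-count scaling 8 and 0. FDH, an enzyme of epidermal fatty acid elongation, had 462 and 414 cpm in the preparations and 177 and 156 cpm in leaves, and the receptor kinase ACR4 had 18.8 and 16.2 cpm in the preparations against 7.05 and 8.34 cpm in leaves. ATML1, the regulator of epidermal identity, was slightly lower at -0.25 (SE 0.08, adjusted p = 0.0169).

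Trichome regulators had 3 of 10 tested members called higher and 3 lower, shares near the background, with 6 higher and 1 lower under total-count scaling and 5 higher without leaf replicate 2. SIM, an inhibitor of cell division in trichomes, had 20.4 and 19.7 cpm in the preparations and 3.89 and 3.59 cpm in leaves, and its exons overlap another locus over 31.4% of their length. GL2, a homeobox factor of trichome growth, had 33.6 and 34.2 cpm in the preparations against 47.6 and 52.6 cpm in leaves, a difference of -0.56 (SE 0.10, adjusted p = 3.78e-04) on the log2 scale. TTG1, a WD40 protein of the same list, was lower by a similar amount, -0.55 (SE 0.08, adjusted p = 1.04e-04). Under total-count scaling neither of these 2 decreases passed the test (adjusted p = 0.110 for GL2 and 0.0954 for TTG1).

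**Figure D2:**
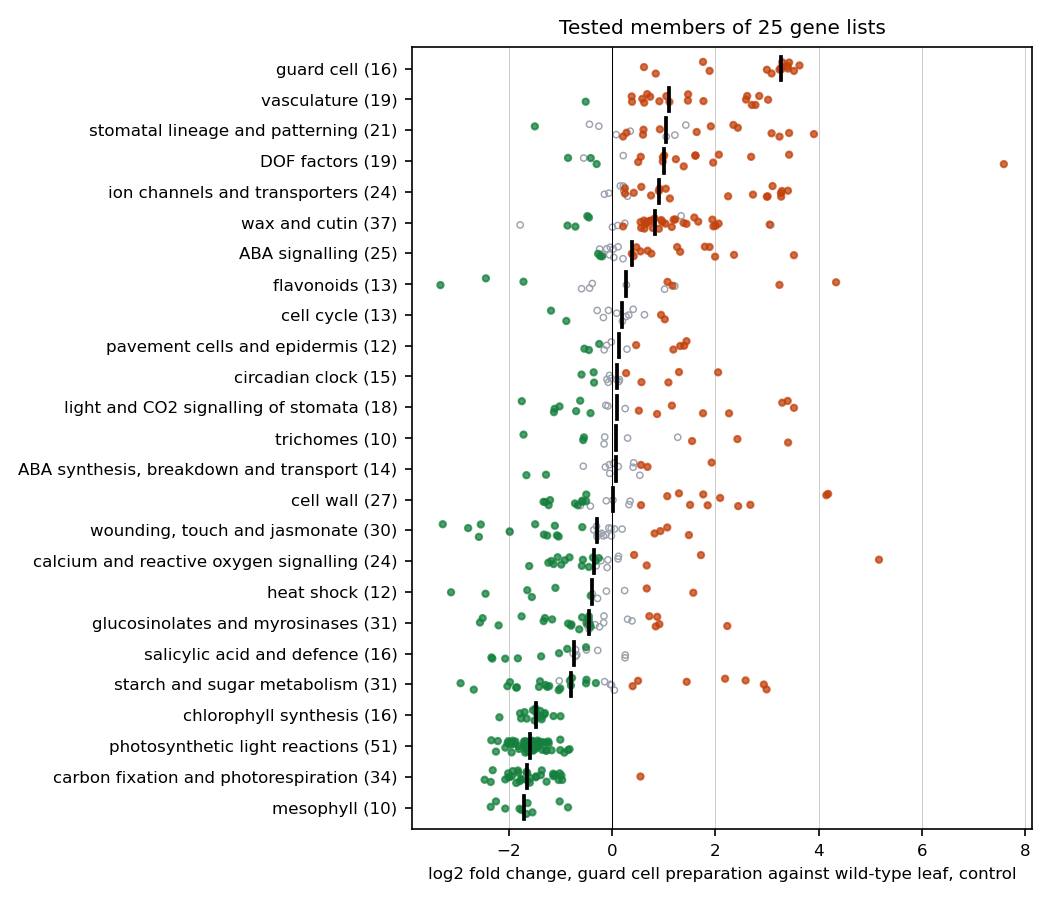
Log2 fold change of every tested member of 25 gene lists, ordered by list median (black bars), with the number tested in brackets. Orange points were called higher in the preparations, green points lower and open grey points were not called. The guard cell list stands at the top with a median of 3.27 and the mesophyll list at the bottom with -1.71. The point at 7.58 is DOF4.7, a gene with 0 counts in both leaf libraries.

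Genes that build and space stomata form the next class. Of 21 tested members of the stomatal lineage list, 13 were called higher and 1 lower, with a median of 1.05; 3 of them (FAMA, SCAP1, MYB60) are also guard cell markers. MYB88, which with MYB124 limits the last division, had 23.8 and 25.6 cpm in the preparations and 8.11 and 7.79 cpm in leaves. Of the 7 transcription factors of the list, 6 were called higher and none lower. SPCH, which starts the lineage, had 1.69 and 1.39 cpm in the preparations against 0.361 and 0.445 cpm in leaves, a difference of 1.91 (SE 0.42, adjusted p = 0.00228). MUTE, which advances it, had 0.398 and 0.213 cpm in the preparations and 0.139 and 0.148 cpm in leaves and was not called (adjusted p = 0.221).

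Peptides and receptors of stomatal spacing differed in both directions. EPF1, a peptide secreted by late lineage cells that keeps stomata apart, had 8.79 and 8.11 cpm in the preparations against 0.389 and 0.718 cpm in leaves, a difference of 3.91 (SE 0.28, adjusted p = 4.67e-07) on the log2 scale. Both EPF1 preparations stood far above both leaf libraries. The receptor protein TMM, which senses it, had 11.2 and 9.95 cpm in the preparations and 1.81 and 2.33 cpm in leaves, and its partner ERL1 had 2.48 and 1.39 cpm in the preparations against 0.306 and 0.396 cpm in leaves. EPFL9, the peptide that mesophyll cells release to promote stomata, was the member called lower, with 3.34 and 3.81 cpm in the preparations and 9.55 and 10.7 cpm in leaves. The broadly expressed receptor kinase ER had 41.8 and 40.5 cpm in the preparations against 44.1 and 54.3 cpm in leaves and was not called (adjusted p = 0.116).

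Ion transport was next. Of 27 listed channels and transporters, 24 were tested, 18 were called higher and none lower, with a median of 0.91. Among those called higher, KAT1, KAT2, SLAC1, ALMT12 and GORK are also guard cell markers. Potassium channels of the plasma membrane separated into 2 kinds. KAT2, the partner of KAT1, had 61.7 and 57.9 cpm in the preparations and 6.00 and 6.36 cpm in leaves, and SKOR, an outward channel best known from the root stele, had 9.65 and 8.51 cpm in the preparations against 1.08 and 1.16 cpm in leaves. KAT3 had 4.198 and 4.40 cpm in the preparations and 2.92 and 2.202 cpm in leaves, AKT1 had 15.2 and 16.2 cpm in the preparations against 13.3 and 12.3 cpm in leaves and AKT2 had 48.1 and 51.6 cpm in the preparations and 40.0 and 45.9 cpm in leaves. The first 2 differed by 3.27 and 3.01, KAT3 by 0.75, and neither AKT gene was called (adjusted p = 0.0617 and 0.157).

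Levels can be ordered between genes only per exon length. In the preparations KAT1 had 55.5 cpm per kb, KAT2 20.7, GORK 17.9, AKT2 15.2, AKT1 4.92, SKOR 3.21 and KAT3 1.75. In leaves the order of these levels began with AKT2 at 13.1 cpm per kb, followed by KAT1 at 5.76 and AKT1 at 4.01. KAT1 therefore led the potassium channels in the preparations but not in leaves.

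Anion and vacuolar transporters gave large and small differences. ALMT6, a vacuolar malate channel, had 8.03 and 7.90 cpm in the preparations against 0.611 and 1.21 cpm in leaves, a difference of 3.11 (SE 0.35, adjusted p = 1.59e-05) on the log2 scale, while ALMT9, also vacuolar, had 54.7 and 56.4 cpm in the preparations and 36.8 and 38.3 cpm in leaves, a difference of 0.56 (SE 0.07, adjusted p = 2.69e-05). ABCB14, a malate importer of guard cells, had 84.0 and 73.4 cpm in the preparations against 15.9 and 17.3 cpm in leaves. The materials did not overlap in these 3 genes, as in 83.8% of all tested genes. CLC-C, a vacuolar chloride transporter, had 87.2 and 81.6 cpm in the preparations and 39.2 and 38.6 cpm in leaves. The vacuolar cation exchanger NHX2 differed by 0.90 and its homologue NHX1 by 0.25. TPC1, the vacuolar cation channel found in most cells, had 149 and 154 cpm in the preparations against 125 and 130.0 cpm in leaves. Its difference was called at 0.25 (SE 0.06, adjusted p = 0.00392).

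The proton pumps that power stomatal opening were not uniform. AHA1 had 971 and 976 cpm in the preparations and 463 and 485 cpm in leaves, a difference of 1.04 (SE 0.07, adjusted p = 2.00e-07) on the log2 scale. AHA5 had 133 and 123 cpm in the preparations against 18.22 and 20.5 cpm in leaves, a difference of 2.73 (SE 0.09, adjusted p = 3.75e-09) on the log2 scale. AHA2 had 292 and 289.6 cpm in the preparations and 302 and 306 cpm in leaves and was not called (adjusted p = 0.627). Per exon length, the phloem pump AHA3 was the most abundant of the 4 in the preparations at 729.8 cpm per kb, ahead of AHA1 at 213, AHA2 at 78.6 and AHA5 at 37.8. In leaves AHA3 and AHA1 lay close together at 107 and 104 cpm per kb.

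Signalling of light and CO2 in stomata fell into opposite groups. Among its 18 genes, 8 passed the test as higher and 7 as lower, with a median of 0.08. Of those higher, BLUS1, HT1, MPK12 and AT4G22790 are also guard cell markers. The kinases HT1 and MPK12, which relay CO2, and BLUS1 were 9.80 to 11.5 times the leaf level. HT1 had 68.1 and 69.9 cpm in the preparations against 6.44 and 6.63 cpm in leaves and MPK12 had 142 and 136 cpm in the preparations and 12.9 and 15.4 cpm in leaves. AT3G01490, a protein kinase superfamily member, had 52.2 and 50.0 cpm in the preparations against 20.4 and 25.4 cpm in leaves. CRY2, a blue light receptor, had 338 and 339 cpm in the preparations and 183 and 187 cpm in leaves. The materials did not overlap in any of these 5 genes, as in 83.8% of all tested genes.

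The photoreceptors that act upstream of BLUS1 were lower. PHOT1 had 179 and 174 cpm in the preparations against 372 and 392 cpm in leaves, a difference of -1.11 (SE 0.08, adjusted p = 5.85e-07) on the log2 scale. PHOT2 had 171 and 164 cpm in the preparations and 326 and 352 cpm in leaves, with an overlap of another locus over 38.8% of its exons. RPT2, a phototropin signalling partner, was 2.19 times lower, and the blue light receptor CRY1 1.54 times lower. CA1, the major carbonic anhydrase of mesophyll chloroplasts, had 811 and 795 cpm in the preparations against 2578 and 2825 cpm in leaves, while CA4, the plasma membrane form, had 135 and 129.7 cpm in the preparations and 143 and 146 cpm in leaves and was not called (adjusted p = 0.135).

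**Figure D3:**
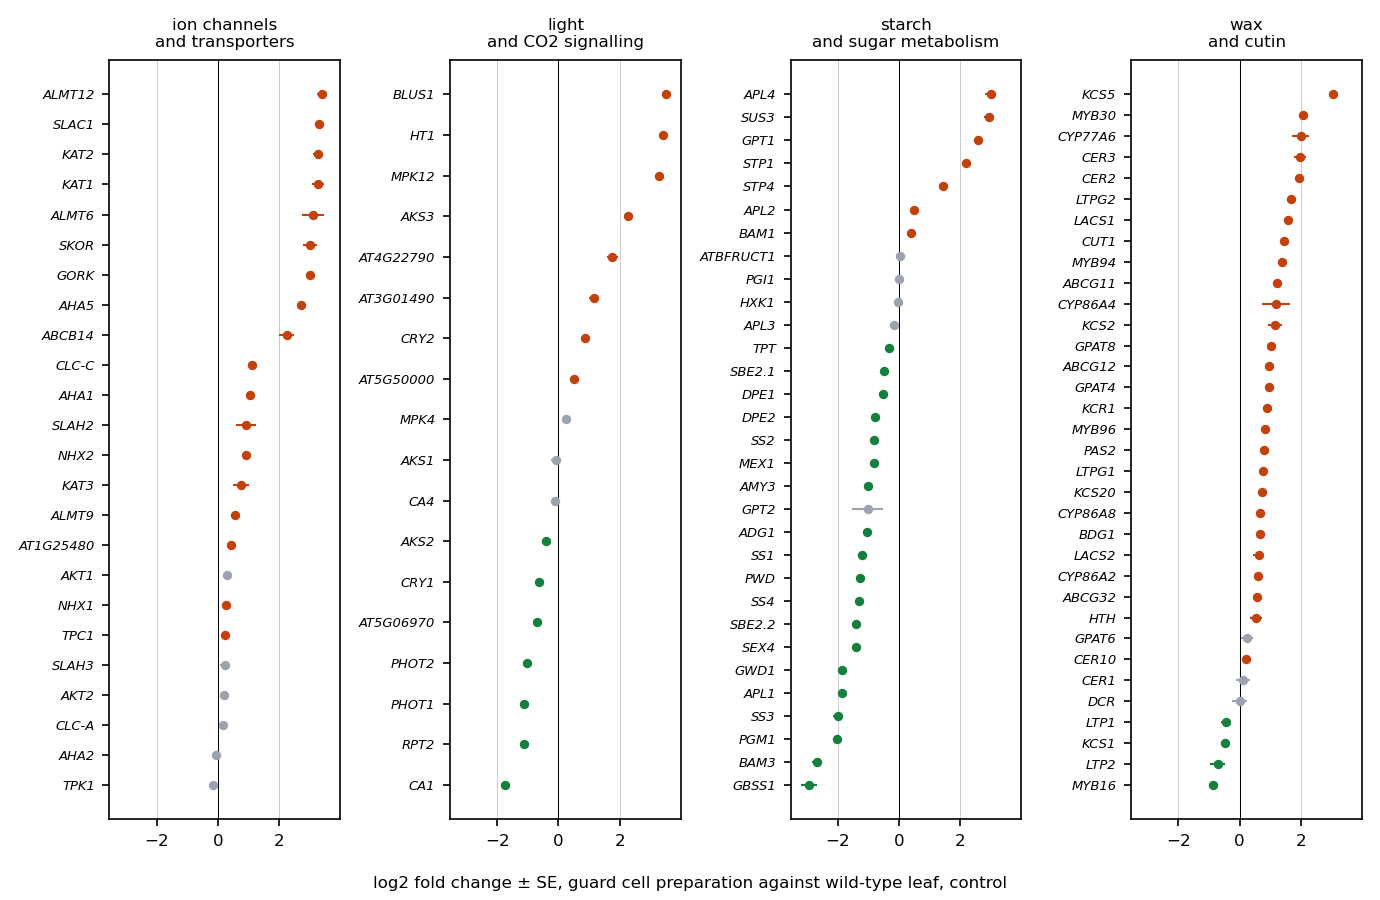
Log2 fold change with its SE for the tested members of 4 lists whose mean is at least 1 cpm in either material. Orange points were called higher in the preparations, green points lower and grey points were not called. No channel was called lower, while the light and CO2 list and the starch list spread to both sides, from -2.94 for GBSS1 to 2.99 for APL4 in the latter.

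ABA signalling genes were examined in these untreated samples. Of 25 tested members, 13 were called higher and 3 lower, with a median of 0.38. Of the 9 receptors tested, 4 were called higher, and PYL2 stood apart with 24.6 and 21.0 cpm in the preparations against 1.42 and 2.52 cpm in leaves, a difference of 3.52 (SE 0.25, adjusted p = 3.72e-07) on the log2 scale. PYR1, PYL8 and PYL4 were higher by 0.69, 0.76 and 0.47. The remaining 5 were not called, and 5 more receptors of the list had too few counts to be tested.

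The phosphatases that hold the pathway off were higher as well, with 6 of 8 called. ABI1 had 116 and 126 cpm in the preparations and 49.1 and 48.1 cpm in leaves and ABI2 had 22.5 and 21.7 cpm in the preparations against 6.42 and 4.73 cpm in leaves, log2 fold changes of 1.32 (SE 0.09, adjusted p = 2.07e-07) and 1.99 (SE 0.12, adjusted p = 1.38e-07). Among the kinases, OST1 was higher and SNRK2.2 was lower (-0.23). Of the 5 ABA-responsive bZIP factors tested, 2 were called higher and 2 lower. ABF1 and ABF2 were slightly lower (-0.27 and -0.20) and ABF3 slightly higher (0.42). The largest difference among the 5 was an increase of 1.258 in another member. Under total-count scaling 20 members of the whole ABA signalling list were called higher and none lower.

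Genes of ABA synthesis, breakdown and transport had 3 of 14 called higher and 2 lower, against 7 and 1 under total-count scaling. ABA1, the plastid zeaxanthin epoxidase, had 109.7 and 99.7 cpm in the preparations and 334 and 327 cpm in leaves, a difference of -1.66 (SE 0.09, adjusted p = 4.98e-08) on the log2 scale. ABCG22, a transporter whose loss increases water loss, had 164 and 139 cpm in the preparations against 43.9 and 36.0 cpm in leaves. BGLU18, which frees ABA from its glucose ester, had 169 and 124 cpm in the preparations and 384 and 328 cpm in leaves, with a difference of -1.28 (SE 0.40, adjusted p = 0.0151). The call was lost in 2 of 4 fits with a library left out (adjusted p = 0.105 without preparation replicate 2 and 0.0641 without leaf replicate 1). NCED3, the stress-induced first step of ABA synthesis, had 8.83 and 9.90 cpm in the preparations against 9.39 and 11.1 cpm in leaves.

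Of 24 genes of calcium and reactive oxygen signalling, 14 were called lower and 4 higher, with a median of -0.35, which turned to 0.04 under total-count scaling, where 8 were lower and 7 higher. Of 11 calcium-dependent protein kinases, 8 were called lower, CPK3 with 40.7 and 40.8 cpm in the preparations and 100.3 and 92.0 cpm in leaves among them. The 2 NADPH oxidases differed in direction. RBOHF had 34.9 and 36.8 cpm in the preparations against 10.7 and 11.04 cpm in leaves, a difference of 1.72 (SE 0.07, adjusted p = 1.11e-08) on the log2 scale, and RBOHD had 43.2 and 46.3 cpm in the preparations and 71.0 and 63.5 cpm in leaves, a difference of -0.59 (SE 0.15, adjusted p = 0.00448) on the log2 scale. CBL5, a calcium sensor, had 4.81 and 5.79 cpm in the preparations against 0.167 and 0.124 cpm in leaves, and the catalase gene CAT3 had 1023 and 1146 cpm in the preparations and 2991 and 3615 cpm in leaves.

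Photosynthesis genes were uniform in direction. All 51 light reaction genes were called lower, with a median of -1.58 and a range from -2.34 to -0.83. The list made up 7.91% and 8.04% of all counts in the preparations against 15.9% and 17.35% in leaves. Light-harvesting proteins, photosystem I subunits and photosystem II subunits had medians of -1.49, -1.62 and -1.62. All 51 were also called lower under total-count scaling.

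Members of one complex were not lowered alike. PSBO2, the minor isoform of the oxygen-evolving complex subunit, had 269 and 286 cpm in the preparations against 1327 and 1485 cpm in leaves, a difference of -2.34 (SE 0.10, adjusted p = 1.90e-08) on the log2 scale. PSBO1, the major isoform, had 1872 and 2061 cpm in the preparations and 5401 and 6091 cpm in leaves, a difference of -1.55 (SE 0.10, adjusted p = 2.90e-07) on the log2 scale. Among antenna genes LHCB2.1 had 945 and 835 cpm in the preparations against 4216 and 4256 cpm in leaves and LHCB1.3 had 10954 and 11328 cpm in the preparations and 19147 and 21160.2 cpm in leaves, differences of -2.25 and -0.86. Between 10.7% and 29.5% of the 50-base exon windows of the LHCB1 and LHCB2 genes also occur in another locus, so reads may be split between their members and the values of single members are uncertain.

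Carbon fixation followed the light reactions, with 33 of 34 genes called lower and a median of -1.64. RCA, which keeps Rubisco active, had 1601 and 1683 cpm in the preparations against 6849 and 6942 cpm in leaves. CP12-2, a small protein that binds Calvin cycle enzymes in the dark, had 54.4 and 60.1 cpm in the preparations and 323 and 311 cpm in leaves, and HCEF1, the plastid fructose bisphosphatase, had 150.4 and 162 cpm in the preparations against 751 and 799.7 cpm in leaves. Their log2 fold changes were -2.07 (SE 0.09, adjusted p = 2.06e-08), -2.47 (SE 0.08, adjusted p = 4.49e-09) and -2.31 (SE 0.08, adjusted p = 4.89e-09).

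Photorespiration was lower too, with 15 of 16 genes called lower, against all 18 of the Calvin cycle. GLDP1, the P protein of glycine decarboxylase, had 414 and 420.5 cpm in the preparations and 2195 and 2065 cpm in leaves, a difference of -2.35 (SE 0.11, adjusted p = 2.06e-08) on the log2 scale. The exception was AT5G36790, called higher at 0.55 with 6.44 and 5.39 cpm in the preparations against 4.19 and 3.88 cpm in leaves. It shares 98.9% of its 50-base exon windows with another locus, so its value is uncertain, and no gene of the list was called higher without preparation replicate 1 or without leaf replicate 2. RBCS1A, a small subunit of Rubisco, remained at 6635 and 6821 cpm in the preparations, against 13356 and 13878 in leaves.

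Chlorophyll synthesis had all 16 genes called lower and a median of -1.47. PORC, a light-dependent reductase of the pathway, had 52.9 and 55.0 cpm in the preparations and 237 and 253 cpm in leaves. The transcription factors GLK1 and GLK2, which switch on these genes in leaves, were lower too. GLK1 had 93.8 and 99.2 cpm in the preparations against 297 and 311 cpm in leaves, and GLK2 had 65.2 and 67.2 cpm in the preparations and 228 and 221 cpm in leaves. They differed by -1.66 (SE 0.09, adjusted p = 8.47e-08) and -1.76 (SE 0.11, adjusted p = 1.18e-07). In these 3 photosynthesis lists, AT5G36790 was the only member called higher with all libraries.

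**Figure D4:**
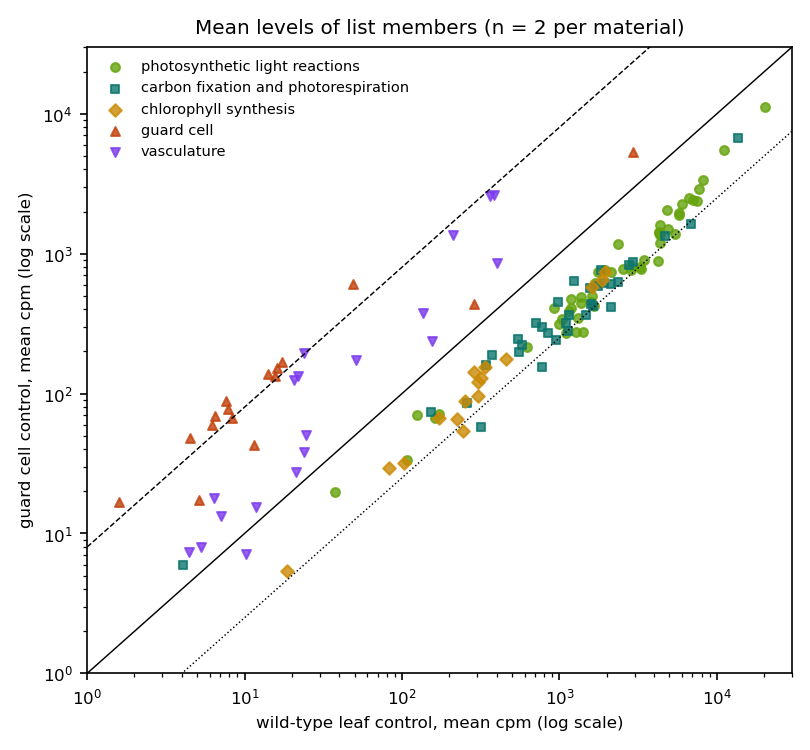
Mean cpm in guard cell preparations (y) against mean cpm in wild-type leaves (x), log axes, n = 2 per material, for the tested members of 5 lists. The solid line marks equal levels, the dotted line 4 times below the leaf level and the dashed line 8 times the leaf level. Most photosynthesis genes lie in a band between the solid and dotted lines over their whole range of levels, and most guard cell markers lie at or above the dashed line.

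Starch and sugar genes differed in both directions. Of 31, 19 were called lower and 7 higher, with a median of -0.80, against 16 lower and 11 higher under total-count scaling. In starch synthesis 10 of 14 were lower and 2 higher, and in starch breakdown 8 of 9 were lower and 1 higher. GBSS1, the granule-bound enzyme that makes amylose, had 3.25 and 3.84 cpm in the preparations against 27.0 and 27.5 cpm in leaves, a difference of -2.94 (SE 0.26, adjusted p = 2.43e-06) on the log2 scale. BAM3, the main starch-degrading beta-amylase of leaves at night, had 66.7 and 76.1 cpm in the preparations and 508 and 407 cpm in leaves, whereas BAM1, the isoform that acts in guard cells, had 62.9 and 55.2 cpm in the preparations against 46.9 and 42.8 cpm in leaves. BAM1 was called higher at 0.40 (SE 0.12, adjusted p = 0.0115) and BAM3 lower at -2.68 (SE 0.16, adjusted p = 1.06e-07).

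Transporters and sucrose-using enzymes were among the members called higher, though of 8 genes of sugar transport and use only 4 were higher and 1 was lower. GPT1, which carries glucose 6-phosphate into plastids, had 209 and 202 cpm in the preparations and 36.2 and 32.4 cpm in leaves. STP1, a proton-driven hexose importer of guard cells, had 638 and 497 cpm in the preparations against 123 and 126 cpm in leaves, and STP4 had 335 and 279 cpm in the preparations and 107 and 119 cpm in leaves. APL4, a large subunit of the first enzyme of starch synthesis in non-green plastids, had 45.9 and 47.5 cpm in the preparations against 4.92 and 6.80 cpm in leaves, while APL1, the subunit of leaf mesophyll, had 113 and 118 cpm in the preparations and 396 and 439.7 cpm in leaves. SUS3, a sucrose synthase, had 14.0 and 12.8 cpm in the preparations against 2.25 and 1.29 cpm in leaves. Both preparations lay above both leaf libraries in each of these genes except APL1, where the order was the opposite. Over all tested genes, 83.8% had no overlap in either direction. The log2 fold changes were 2.58 (SE 0.09, adjusted p = 6.52e-09) for GPT1, 2.19 (SE 0.13, adjusted p = 1.31e-07) for STP1, 2.99 (SE 0.19, adjusted p = 1.92e-07) for APL4 and 2.94 (SE 0.18, adjusted p = 1.15e-07) for SUS3.

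Cuticle genes were mostly called higher. Of 37 tested wax and cutin genes, 27 were called higher and 4 lower, with a median of 0.82. Enzymes that elongate fatty acids had 8 of 9 called higher. KCS5, a condensing enzyme of wax synthesis, had 123 and 116 cpm in the preparations and 14.8 and 14.0 cpm in leaves, a difference of 3.05 (SE 0.13, adjusted p = 1.14e-08) on the log2 scale. CUT1, the main condensing enzyme of stem and leaf wax, had 933 and 859.8 cpm in the preparations against 330.3 and 331 cpm in leaves, and CER3, which acts in alkane formation, had 152 and 142 cpm in the preparations and 39.9 and 35.6 cpm in leaves. In cutin synthesis 9 of 12 genes were called higher, and in wax and cutin export 5 of 7.

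Among transcription factors that regulate the cuticle, MYB30 had 80.6 and 70.7 cpm in the preparations against 17.44 and 18.8 cpm in leaves, a difference of 2.06 (SE 0.09, adjusted p = 1.17e-08) on the log2 scale. MYB94 and MYB96 were higher by 1.38 and 0.82. MYB16 was lower, with 6.28 and 6.54 cpm in the preparations and 11.3 and 12.1 cpm in leaves. CER1, the partner of CER3, had 3.06 and 3.63 cpm in the preparations against 2.75 and 3.46 cpm in leaves and was not called (adjusted p = 0.711).

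Cell wall genes had 11 of 27 called higher and 10 lower, against 14 and 5 under total-count scaling. All 5 cellulose synthases of the primary wall were called lower, from -0.67 for CESA6 to -0.50 for CESA3. These differences are not far above the 0.38 by which total-count scaling shifted the median of all genes. Whether their calls hold under that scaling is not given here. Of the pectin enzymes of the list, 3 were counted as a group, and all 3 were called higher. This count does not cover every pectin enzyme of the list. AT1G23200, annotated as a plant invertase and pectin methylesterase inhibitor superfamily member, had 29.3 and 26.3 cpm in the preparations and 1.42 and 1.63 cpm in leaves, a difference of 4.18 (SE 0.12, adjusted p = 2.60e-09) on the log2 scale. AT2G16630, a Pollen Ole e 1 allergen and extensin family protein, had 77.7 and 72.0 cpm in the preparations against 11.4 and 12.1 cpm in leaves.

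Expansins, which loosen walls, had 4 of 11 called higher and 3 lower, shares near those of all tested genes. EXPA16 had 100.5 and 68.3 cpm in the preparations and 4.55 and 4.95 cpm in leaves, a difference of 4.15 (SE 0.18, adjusted p = 1.44e-08) on the log2 scale. EXPA15 and EXPA4 were higher by 2.44 and 1.85, and EXPA11 and EXPA8 were lower (-1.29 and -1.20). EXPA10 was called higher too, but its leaf libraries differed from each other, with 21.7 and 10.2 cpm.

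Glucosinolates are sulfur-rich defence compounds that myrosinases break down on wounding. Of 31 tested genes, 18 were called lower and 5 higher, with a median of -0.45, against 9 lower and 6 higher under total-count scaling. The 2 myrosinases of leaves differed in direction: TGG1 was higher, as given above, and TGG2 had 189 and 192 cpm in the preparations against 895 and 1274 cpm in leaves, a difference of -2.51 (SE 0.21, adjusted p = 1.34e-06) on the log2 scale. In synthesis 10 of 15 enzymes were called lower and none higher, although MYB28 and MYB29, which activate the aliphatic branch, were higher by 0.91 and 0.87. GTR2, the transporter that loads glucosinolates into the phloem, had 184 and 194 cpm in the preparations and 37.4 and 43.3 cpm in leaves. MBP1, a myrosinase-binding protein, had 7.42 and 5.23 cpm in the preparations against 45.1 and 29.2 cpm in leaves.

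Flavonoid genes were few in counts. Of 13 tested, 4 were called higher and 3 lower. CHS, the first enzyme of the pathway, had 6.99 and 8.67 cpm in the preparations and 44.3 and 41.2 cpm in leaves, while TT7, the flavonoid 3'-hydroxylase, had 20.6 and 18.6 cpm in the preparations against 1.81 and 2.33 cpm in leaves. Their log2 fold changes were -2.45 (SE 0.22, adjusted p = 2.28e-06) and 3.24 (SE 0.19, adjusted p = 9.97e-08). DFR, further down the pathway, had 1.29 and 0.987 cpm in the preparations and 0.0833 and 0.0247 cpm in leaves, values that rest on 42 and 37 counts against 3 and 1, so no fold is given. The list's median was 0.28 and turned negative without the low-count filter (-0.07), with a minimum mean of 50 counts (-0.45) and in a fit of only the 4 libraries (-0.35).

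DOF transcription factors, a plant family that binds the sequence AAAG and includes regulators of guard cells and of veins, were described as a family. Of 19 tested, 14 were called higher and 3 lower, with a median of 1.01. SCAP1 had the largest difference among those above 5 cpm, 3.43 (SE 0.15, adjusted p = 2.09e-08). OBP2, expressed in phloem, had 231 and 239 cpm in the preparations against 58.5 and 53.9 cpm in leaves. AT1G69570, a Dof-type zinc finger protein whose exons overlap another locus over 59.9% of their length, had 70.0 and 67.7 cpm in the preparations and 10.2 and 11.1 cpm in leaves, and HCA2, a regulator of vascular cambium, had 31.5 and 29.3 cpm in the preparations against 7.67 and 7.99 cpm in leaves. CDF1, a flowering time repressor, was lower, with 7.14 and 6.67 cpm in the preparations and 12.7 and 12.3 cpm in leaves. DOF4.7 had 0 counts in both leaf libraries and 0.919 and 0.560 cpm in the preparations, where it was at least 9.39-fold higher than a floor of 3 counts per leaf library.

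The AAAG core was therefore counted in promoters, defined as 250 bases before to 50 bases after the annotated start of a gene in RefSeq's TAIR10.1 assembly. The motifs TAAAG and AAAAG were searched on both strands (CTTTA and CTTTT), and a cluster means at least 3 copies on the same strand within 100 bases. Of all 31345 promoters, 20.3% held a cluster, and of the 20567 promoters of tested genes 22.3% did. It was found in 5 of 16 guard cell markers (31.2%), in 9 of 20 vasculature markers (45%) and in 5 of 51 light reaction genes (9.80%). Among the 6 genes with the largest increases, described below, 1 had a cluster. The median share of A and T was 68.3% in guard cell, 70.3% in vasculature and 65.7% in light reaction promoters, and these shares are a description only.

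A second motif, the G-box CACGTG, which light-responsive and ABA-responsive factors bind, was in 7.01% of all promoters, in 8.86% of those of tested genes, in 15 of 51 light reaction genes (29.4%) and in 2 of 16 guard cell markers. The 250 bases before the start are shown for MYB60 (chr1:2820479-2820728, minus strand), KAT2 (chr4:10114544-10114793, plus strand) and SUC2 (chr1:8033157-8033406, minus strand), since a guard cell factor, a guard cell channel and a phloem transporter that were all higher each carry a cluster. RBCS2B (chr5:15382072-15382321, minus strand), a Rubisco gene that was lower at -1.75, shows a G-box. Sequences are from TAIR10.1, read 5′ to 3′ along the gene's strand. Capitals mark the DOF motifs in the first 3 and CACGTG in RBCS2B. The KAT2 and SUC2 sequences also hold CACGTG, and the RBCS2B sequence also holds AAAAG, all left unmarked.
MYB60: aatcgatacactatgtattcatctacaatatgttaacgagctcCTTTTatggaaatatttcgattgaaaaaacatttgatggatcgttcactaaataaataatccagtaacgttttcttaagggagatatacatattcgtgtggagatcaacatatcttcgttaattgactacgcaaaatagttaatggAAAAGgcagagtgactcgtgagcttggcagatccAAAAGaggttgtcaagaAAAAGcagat
KAT2: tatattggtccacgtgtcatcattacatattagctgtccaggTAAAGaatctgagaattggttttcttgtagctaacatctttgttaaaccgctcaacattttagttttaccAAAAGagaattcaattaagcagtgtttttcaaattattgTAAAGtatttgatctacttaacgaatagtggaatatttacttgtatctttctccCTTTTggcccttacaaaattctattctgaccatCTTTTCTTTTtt
SUC2: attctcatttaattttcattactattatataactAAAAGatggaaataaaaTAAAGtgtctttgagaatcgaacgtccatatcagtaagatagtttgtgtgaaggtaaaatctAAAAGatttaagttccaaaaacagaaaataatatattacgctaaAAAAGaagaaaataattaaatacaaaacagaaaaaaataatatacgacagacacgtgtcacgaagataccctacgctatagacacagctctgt
RBCS2B: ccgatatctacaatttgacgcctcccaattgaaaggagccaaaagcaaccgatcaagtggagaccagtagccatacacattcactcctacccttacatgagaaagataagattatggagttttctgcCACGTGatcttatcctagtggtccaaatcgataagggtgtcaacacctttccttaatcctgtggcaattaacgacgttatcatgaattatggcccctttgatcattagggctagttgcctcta

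Stress classes were examined because isolation of epidermis wounds tissue. Of 30 genes of wounding, touch and jasmonate, 4 were called higher and 12 lower, with a median of -0.30, which turned to 0.08 under total-count scaling. Of 12 rapidly induced factors such as WRKY33, WRKY40 and ZAT10, none was called higher and 2 were lower. ZAT10 had 25.3 and 27.5 cpm in the preparations against 26.9 and 35.8 cpm in leaves, and WRKY40 had 18.4 and 24.8 cpm in the preparations and 18.8 and 19.1 cpm in leaves. Higher were ACS6, an ethylene synthesis enzyme, with 42.5 and 48.3 cpm in the preparations against 15.6 and 16.8 cpm in leaves, the touch genes TCH2 and TCH4, and JAZ10. TCH3, another touch gene, was lower at -1.07 (SE 0.24, adjusted p = 0.00214).

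Jasmonate synthesis was lower in 4 of 5 genes tested. LOX2, the chloroplast lipoxygenase of the pathway, had 208 and 187 cpm in the preparations and 2070.3 and 1760.3 cpm in leaves, a difference of -3.28 (SE 0.25, adjusted p = 6.32e-07) on the log2 scale. AOS, the next enzyme, had 77.2 and 76.0 cpm in the preparations against 578 and 481 cpm in leaves. The cyclases that follow, AOC1 and AOC2, are outside the list and were added to complete the pathway after their values were seen; AOC2 had 89.9 and 89.3 cpm in the preparations and 611 and 528 cpm in leaves and AOC1 differed by -2.70. VSP2, a target of the hormone, was lower in both preparations than in both leaf libraries, with 9.90 and 5.41 cpm in the preparations against 34.6 and 56.3 cpm in leaves.

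Of 16 salicylic acid and defence genes, none was called higher and 8 were lower, with a median of -0.73. The lower calls numbered 5 without preparation replicate 1, 4 without preparation replicate 2 and 4 without leaf replicate 1, and under total-count scaling 2 were called higher and 3 lower. PR1, a marker of salicylic acid responses, had 6.01 and 11.9 cpm in the preparations and 61.4 and 29.9 cpm in leaves, and the glucanase gene PR2 had 33.2 and 45.0 cpm in the preparations against 259 and 132 cpm in leaves. In both genes the leaf libraries lay above the preparations and differed from each other. PR1 was called at -2.34 (SE 0.84, adjusted p = 0.0314), and the call was lost without either preparation library or without leaf replicate 1 (adjusted p between 0.0667 and 0.163). PDF1.2A, a defensin of the jasmonate and ethylene branch, had 3.13 and 2.93 cpm in the preparations and 14.9 and 10.6 cpm in leaves.

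Heat shock genes had 2 of 12 called higher and 6 lower, with a median of -0.40. With total-count scaling 3 were called higher and 2 lower, so the balance turned. The lower calls numbered 3 without preparation replicate 1, 3 without preparation replicate 2 and 3 without leaf replicate 1. HSP90.1 had 5.24 and 5.52 cpm in the preparations against 21.0 and 12.8 cpm in leaves. HSP70 had 6.89 and 6.402 cpm in the preparations and 21.5 and 7.13 cpm in leaves, so its leaf libraries differed from each other. It was called at -1.10 (SE 0.38, adjusted p = 0.0250), and the call was lost without either preparation library (adjusted p = 0.0776 and 0.108) and without leaf replicate 1, where the difference was -0.11 (adjusted p = 0.649). BIP3, a chaperone of the endoplasmic reticulum, had 2.60 and 3.28 cpm in the preparations against 11.4 and 6.14 cpm in leaves, with a difference of -1.56 (SE 0.50, adjusted p = 0.0188). The call was lost without either preparation library or without leaf replicate 1 (adjusted p between 0.0573 and 0.145).

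Clock genes, examined because their levels follow the time of harvest, had 5 of 15 called higher and 3 lower, with a median of 0.09. Under total-count scaling 11 were called higher and 0 lower, with a median of 0.47, and under upper quartile factors 8 and 3. ELF4, an evening gene, had 72.4 and 92.1 cpm in the preparations and 20.4 and 19.3 cpm in leaves, and LHY, a morning gene, had 9.19 and 7.98 cpm in the preparations against 4.00 and 4.06 cpm in leaves. In both genes the preparations lay above leaves. CCA1, the morning partner of LHY, differed by -0.02 and was not called (adjusted p = 0.879). GI, which links the clock to flowering, had 236 and 229 cpm in the preparations and 217 and 221 cpm in leaves and was not called (adjusted p = 0.235). RVE1, a clock output factor, had 10.8 and 6.99 cpm in the preparations against 4.36 and 2.90 cpm in leaves.

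Cell cycle genes had 2 of 13 called higher and 2 lower, against 7 and 2 under total-count scaling. CDKB2;2 had 4.93 and 5.39 cpm in the preparations and 2.81 and 2.301 cpm in leaves and the cyclin CYCD3;1 had 12.6 and 12.0 cpm in the preparations against 5.78 and 6.93 cpm in leaves. Both were called higher. MCM2, part of the replication helicase, had 5.03 and 4.83 cpm in the preparations and 9.19 and 9.03 cpm in leaves. PCNA1, the replication clamp, was the other member called lower, with 2.15 and 2.00 cpm in the preparations against 5.30 and 4.13 cpm in leaves.

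Across all tested genes, the 6 with the largest increases among those of at least 50 cpm were not guard cell markers. AAP2, an amino acid permease of the phloem, led with 1553 and 1652 cpm in the preparations and 65.0 and 62.2 cpm in leaves, a difference of 4.65 (SE 0.19, adjusted p = 1.12e-08) on the log2 scale. EXPA16 is given above. AT1G75880, an SGNH hydrolase-type esterase, had 67.3 and 67.5 cpm in the preparations against 3.33 and 3.91 cpm in leaves, and AT3G62820, an invertase and pectin methylesterase inhibitor family protein, had 229.9 and 203 cpm in the preparations and 12.7 and 18.5 cpm in leaves. AT4G15690, a thioredoxin superfamily protein, had 59.9 and 62.9 cpm in the preparations against 4.305 and 3.41 cpm in leaves, and AT3G51760, of unknown function (DUF688), had 72.9 and 73.3 cpm in the preparations and 5.19 and 5.72 cpm in leaves. Their log2 fold changes ran from 3.74 to 4.65. A lack of overlap between the materials was part of the rule that chose these genes. EXPA9, outside the rule that chose these genes and named because EXPA16 was, also stood high, with 171 and 155 cpm in the preparations against 14.9 and 15.5 cpm in leaves.

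The 6 largest decreases were led by MSRB6, a methionine sulfoxide reductase, with 6.53 and 6.21 cpm in the preparations and 84.0 and 70.6 cpm in leaves, a difference of -3.60 (SE 0.17, adjusted p = 2.87e-08) on the log2 scale. LOX2 was among them. TAT3, a jasmonate-induced tyrosine aminotransferase, had 9.90 and 8.11 cpm in the preparations against 146 and 64.1 cpm in leaves, so its leaf libraries differed from each other, and its log2 fold change was -3.54 with all libraries and -2.84 without leaf replicate 1. AT1G14250, a nucleoside phosphatase family protein, had 14.9 and 13.8 cpm in the preparations and 131 and 182 cpm in leaves. The other 2 were AT2G01010 and AT2G03875, loci without an annotated protein product that share 94.3% and 83.7% of their 50-base exon windows with loci elsewhere, so that their counts are uncertain. AT2G01010 had 10.1 and 7.90 cpm in the preparations against 96.2 and 89.8 cpm in leaves, and AT2G03875 had 16.3 and 19.7 cpm in the preparations and 163 and 132 cpm in leaves. In mutant control leaves AT2G01010 had 11.7 and 13.0 cpm and AT2G03875 had 10.2 and 9.88 cpm.

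The class medians were then set beside the same comparison in the 4 wild-type libraries sprayed with ABA, which share no library with the control comparison. In that comparison 64.6% of genes were called, 32.7% as higher and 31.9% as lower, and the shares past a 2-fold difference were 16.5% and 8.54%. The median over all tested genes was 0.02. Of the 6741 genes called higher at control, 78.8% were also called higher with ABA, and these were 72.7% of the genes called higher there. For decreases the shares were 76.6% and 78.4%, and 291 genes were called in opposite directions. Photosynthetic light reactions kept 50 of 51 members called lower under ABA, carbon fixation 33 of 34 and chlorophyll synthesis 15 of 16. Vasculature markers had 18 of 19 called higher again, with a median of 1.39.

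For other classes the values of both settings are set side by side, and the test of the difference is given for the guard cell markers among the additional observations. The guard cell list had a median of 1.35 with ABA, against 3.27 at control. Wax and cutin genes had a median of 0.15, with 11 called higher in place of 27. KCS5 differed by 0.20 with ABA and CUT1 by -0.07, against 3.05 and 1.44 at control. PYL2 had 0.111 and 0.118 cpm in ABA-treated preparations and 0.392 and 0.122 cpm in ABA-treated leaves, so the level was close to 0 in both materials there. AHA5 differed by 0.45 with ABA, against 2.73 at control. DOF factors had a median of 1.63 with 12 of 19 called higher, and GPT1 differed by 3.18.

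Against control leaves of the abf1/2/3/4 mutant, a comparison that reuses the same 2 preparation libraries, 66.6% of genes were called, 32% as higher and 34.6% as lower. Guard cell, vasculature and mesophyll lists had medians of 2.86, 1.54 and -1.29 there. The stress lists had lower medians against mutant than against wild-type leaves, at -1.63 for wounding, touch and jasmonate and -1.55 for salicylic acid and defence. The 2 mutant leaf libraries differed more from each other than other replicates did: 326 of 15944 genes averaging at least 100 counts differed over 2-fold between them, against 11 in the preparations and 51 in wild-type control leaves.

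**Figure D5:**
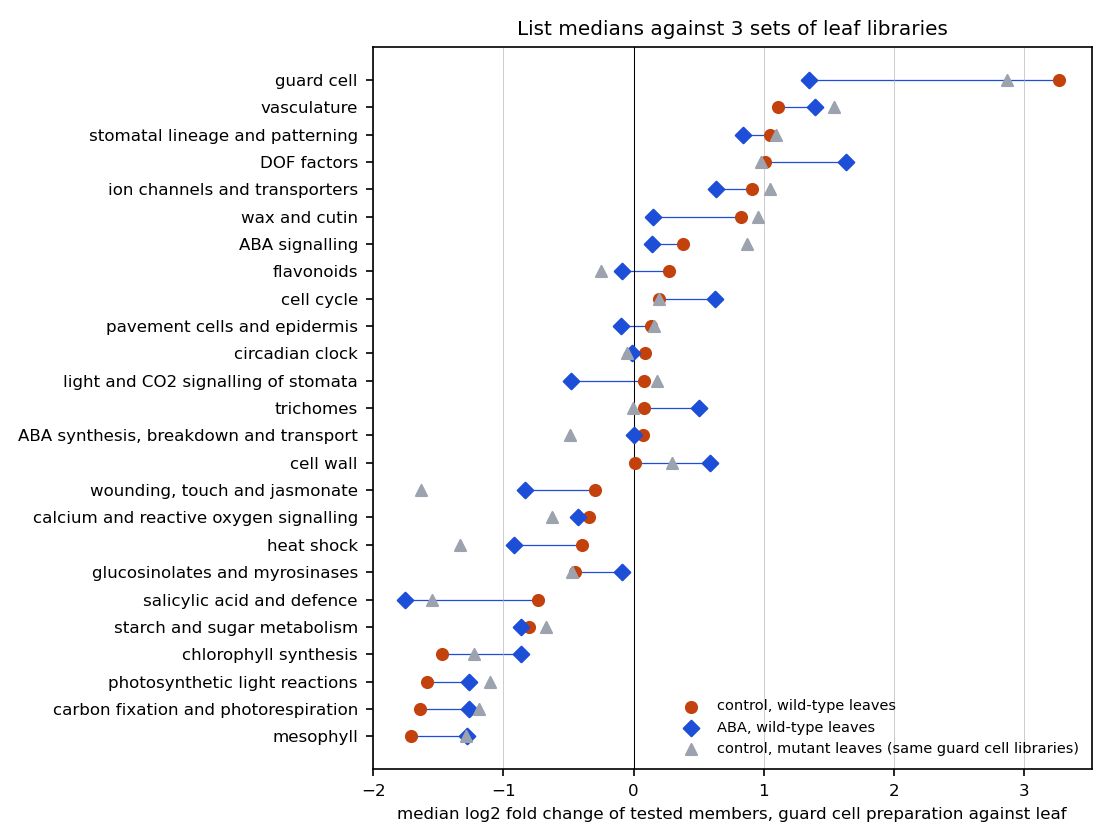
Median log2 fold change of the tested members of each list in 3 comparisons: control preparations against control wild-type leaves (circles), ABA-treated preparations against ABA-treated wild-type leaves (diamonds, joined to the circle by a line) and control preparations against control mutant leaves (triangles). The guard cell list moves from 3.27 at control to 1.35 with ABA, and the photosynthesis lists stay below 0 in all 3.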

How the data were processed

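The authors deposited raw read counts per gene locus, 1 column per library, with no normalization. Per the submitters' processing notes, Trim Galore 0.6.5, cutadapt, FastQC, SAMtools, featureCounts, DESeq2 1.26.0 and the build TAIR10 were named. The aligner, the annotation release and the use of strand are not given in the sources used here, so a gene and an overlapping or antisense locus cannot be told apart. Per the labels, TruSeq V2 mRNA libraries were made from total RNA. Library totals ran from 25294558 to 47116819 counts over 12 libraries; the number of replicates and counting error limit the precision.

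Of 36796 loci, 22341 were kept by filterByExpr with its default minimum of 10 counts, given the 6 groups. All 12 libraries entered 1 quasi-likelihood fit of 6 group means with TMM factors (edgeR 4.0.16, R 4.3.3; glmQLFit and glmQLFTest, two-sided, Benjamini-Hochberg over all tested genes), with 6 residual degrees of freedom and a biological coefficient of variation of 8.98%. Each SE was derived as the absolute log2 fold change over the root of its F statistic. cpm values use TMM-scaled totals and are given as replicates 1 and 2. Against a group at 0 counts, a fold is a lower bound set at 3 counts per library. Gene symbols, products, overlap and promoters come from RefSeq's TAIR10.1 annotation, and figures were drawn with matplotlib 3.10.9 (Python 3.11.15). The count test was tested on simulated data: with 200 of 22341 genes changed, 46.3% of 1.5-fold, 82.1% of 2-fold and 100% of 4-fold changes were called, and 12 unchanged genes. The changed genes were drawn only from those above a minimum expected count. So few changed genes are unlike the real comparison, where 62.8% were called, so these rates cannot be carried over to it.

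The 25 lists (20 functional classes and 5 sets of cell type markers), their genes and the rules were chosen with earlier results of these data known. Some genes are in several lists, so the results of the lists are not independent. Named genes are the guard cell list, in each list up to 3 called members with the largest difference, no overlap between materials and at least 5 cpm, and over all genes the 6 higher and 6 lower with the largest difference among those without overlap, at 50 cpm or more and with at most 25% of exon bases inside another locus. Further genes were named to complete families, after their values were seen. Alternatives covered scaling (RLE, upper quartile, total counts), 2 other filters, DESeq2 1.42.0, fewer libraries, a replicate block, leaving out each library, stricter thresholds and leaving out overlapping loci.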

Additional observations from a re-analysis of the deposited data

Results flagged for a closer look

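The guard cell markers differed from leaves by unequal amounts in control and ABA libraries. The difference between the 2 contrasts (ABA minus control) was tested in the same edgeR fit, in which 15% of all 22341 genes were called, and 13 of the 16 markers were called, all with a lower preparation to leaf difference under ABA. On the log2 scale it was -2.68 (SE 0.21, adjusted p = 3.08e-05) for FAMA, -2.59 (SE 0.23, adjusted p = 6.65e-05) for SCAP1, -2.46 (SE 0.16, adjusted p = 1.10e-05) for MPK12, -2.20 (SE 0.22, adjusted p = 1.46e-04) for BLUS1 and -2.02 (SE 0.14, adjusted p = 1.19e-05) for HT1. It was -1.91 (SE 0.16, adjusted p = 4.72e-05) for SLAC1, -1.70 (SE 0.17, adjusted p = 1.44e-04) for GORK, -1.54 (SE 0.10, adjusted p = 1.11e-05) for OST1 and -1.44 (SE 0.20, adjusted p = 0.00130) for ALMT12. It was -1.31 (SE 0.17, adjusted p = 8.88e-04) for AT1G22690, -1.24 (SE 0.16, adjusted p = 7.50e-04) for MYB60, -1.23 (SE 0.22, adjusted p = 0.00429) for TGG1 and -0.92 (SE 0.22, adjusted p = 0.0200) for KAT2.

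The levels behind these values moved in different ways. FAMA was at 152 and 153 cpm in control preparations and 10.4 and 11.1 in ABA-treated ones, while leaves went from 13.5 and 18.7 cpm at control to 7.55 and 7.03 cpm with ABA. OST1 had 44.1 and 41.1 cpm in control and 36.9 and 38.9 cpm in ABA-treated preparations, and 11.1 and 11.9 cpm in control and 29.5 and 29.9 cpm in ABA-treated leaves. KAT1, which was not called (-0.27 (SE 0.24, adjusted p = 0.488)), had 324 and 299 cpm in ABA-treated preparations and 32.2 and 45.7 in ABA-treated leaves. Over the same libraries the summed vasculature markers were 12171 and 12236 cpm in ABA-treated preparations, against 8936 and 8818 at control. Groups of 2 libraries were too small to look for single outlying samples.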

How the results depend on the processing

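The count of 14031 called genes ran from 11411 to 15171 over the alternatives, except with a minimum absolute log2 fold change of 1, which left 5494 (3338 higher, 2156 lower). Total-count scaling moved the split to 11350 higher and 3821 lower. Leaving out 1 library gave 12019 to 12324 called genes, with 5624 to 5795 higher and 6361 to 6530 lower. Lists with more members called higher than lower numbered 13, and 11 to 16 under the alternatives; lists with more lower numbered 10, and 9 to 12. With the replicate block 14064 genes were called, and all 86 genes named by rule kept their call. Most of the 86 were chosen as called genes with large differences in these same libraries, so this is no independent check. The labels give replicate numbers without a shared origin, and replicate differences of preparations and leaves correlated at 0.06 over 15337 genes, so the numbers were not taken as pairs.

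None of the 86 genes turned its direction, which the choice of genes with large differences made likely. Calls were lost for BGLU18, BIP3, HSP70 and PR1 at an adjusted p under 0.01, in total-count scaling and with libraries left out, and for GL2 and TTG1 under total-count scaling. HSP70 moved from -1.10 to -0.11 without leaf replicate 1 and -1.70 without leaf replicate 2, and PR1 from -2.34 to between -2.93 and -1.74. Calls of CYP86A2, TGG1, GL2, TTG1, CYCD3;1 and MCM2 fell short of a 2-fold difference. The list medians of trichomes, cell wall, pavement cells, light and CO2 signalling and flavonoids changed sign in at least 1 setting other than scaling. Material, isolation and kit were not separated by any alternative, and 2 libraries per group limit the detection of changes under 2-fold.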

Other observations

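Gene families, some of whose members are also in the lists, were described by the product names that RefSeq gives to at least 25 tested loci, each set against the 30.2% and 32.6% of all genes called higher and lower. Families were named after their values were seen and carry no test. Histone superfamily proteins had the lowest median, -0.64, with 19 of 31 called lower and 3 higher. SAUR-like auxin-responsive proteins had a median of -0.54, with 22 of 53 lower and 14 higher, and MATE efflux proteins one of -0.51, with 22 of 44 lower. Mitochondrial transcription termination factors, which act in plastids and mitochondria, had 14 of 30 lower and 2 higher. Tetratricopeptide repeat proteins had 93 of 262 lower and 19 higher.

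The family with the highest median was the late embryogenesis abundant hydroxyproline-rich glycoproteins, at 0.86, with 17 of 29 called higher and 2 lower. The uncharacterized family UPF0497 had 20 of 30 higher and a median of 0.80. The nodulin MtN21 and EamA-like transporters, which include amino acid exporters, had 20 of 35 higher and a median of 0.74. Sec14p-like phosphatidylinositol transfer proteins had 15 of 25 higher and 7 lower, with a median of 0.62. Of the bHLH transcription factors with that product name, 38 of 81 were higher and 16 lower.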
